A study of Mus musculus with 12 samples.

Results

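Lipid droplet coat and fusion genes were followed in adipocytes grown from mouse inguinal fat precursors. They are 10 genes: the perilipins Plin1, Plin2, Plin3, Plin4 and Plin5, the fusion gene Cidec, the droplet formation genes Fitm2 and Bscl2, and the lipase inhibitor genes Hilpda and G0s2. Each was found by its symbol among 22180 genes measured by a probe set that maps to 1 symbol, and the brightest probe set by mean over the 12 arrays was used. All 10 were measured. The cells of every group carried the genotype R26Cre/Prdm16floxEx9, which names Cre recombinase at Rosa26 and loxP sites around part of Prdm16, the gene of a regulator that promotes the brown and beige fat program. The precursors of the group EtOH received ethanol for 3 days while growing, and those of 4OHT received 1 uM 4-hydroxytamoxifen, which is used to switch on inducible Cre. The groups EtOH_Rosi and 4OHT_Rosi received the same ethanol or 4-hydroxytamoxifen and, in addition, 1 uM rosiglitazone, a PPARgamma agonist. All groups were differentiated in a medium with isobutylmethylxanthine, indomethacin, dexamethasone, insulin and T3. Each group had 3 Affymetrix expression arrays. No group received 4-hydroxytamoxifen without the floxed allele, so excision of Prdm16, Cre activity and the drug itself cannot be told apart.

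An adipocyte stores triglyceride in droplets whose surface is a phospholipid monolayer covered by proteins. Droplets bud from the endoplasmic reticulum with the help of FITM2 and seipin, the product of Bscl2, and they grow in fat cells when CIDEC passes lipid from smaller to larger droplets. Perilipins coat the surface and control the access of lipases, with perilipin 1 the main coat of fat cells and perilipin 5 that of tissues that burn fat. HILPDA and G0S2 inhibit adipose triglyceride lipase, the enzyme that opens lipolysis. Several of these genes are known targets of PPARgamma, and Hilpda is also known as a target of the hypoxia-inducible factors.

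The values are log2 probe set values, which ran from 3.05 to 13.91, with array medians between 5.97 and 6.05. Arrays of 1 group correlated across genes at a Pearson r of 0.996 to 0.998, and on the third principal component, with 5.67% of the variance, 4OHT_Rosi 3 stood apart at 16.03 while the others lay between -8.95 and 7.97. No label says that the arrays come from separate cultures, so a p-value here reflects array-to-array spread, part or all of which may be technical. The number of arrays per group limits the precision. Changes are log2 differences of group means with limma's standard error (n = 3 per group), called at a Benjamini-Hochberg adjusted p under 0.05 over all 22180 genes. Prdm16, the targeted gene, was 6.55, 6.49 and 6.84 in EtOH, 6.33, 6.45 and 6.59 in 4OHT, 7.20, 7.46 and 7.44 in EtOH_Rosi, and 6.63, 6.70 and 6.63 in 4OHT_Rosi. With rosiglitazone it fell by 0.71 after 4-hydroxytamoxifen (SE 0.10, limma adjusted p = 0.000646), and without it the arrays overlapped (-0.17, SE 0.10, adjusted p = 0.455). A second, dimmer probe set of Prdm16 differed by -0.07 with rosiglitazone (SE 0.07, adjusted p = 0.644). The sources used here do not place either probe set inside or outside the deleted exon, so they are a weak check of the deletion.

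Rosiglitazone raised most of the 10 genes. After ethanol 8 of 10 rose and 0 fell, against 14.4% of all genes tested called higher and 16.3% called lower. After 4-hydroxytamoxifen 6 of 10 rose and 0 fell, against 11.6% of all genes called higher and 12.1% called lower. By unadjusted p under 0.05, limma gave 9 and 7 higher, and 0 lower in both. The median change of the 10 genes was 0.83 after ethanol and 0.70 after 4-hydroxytamoxifen, beside medians of 0.013 and 0.00 over all genes. The arrays with rosiglitazone lay wholly above those without it in 9 genes after ethanol and 7 after 4-hydroxytamoxifen, against 19.8% and 18.1% of all genes, and wholly below in 0, against 20.9% and 18% of all genes. Leaving out any 1 of the 12 arrays gave 8 or 9 higher in the first comparison and 6 or 7 in the second. The EtOH arrays that serve as controls for rosiglitazone also serve as controls for 4-hydroxytamoxifen below, so the comparisons are not independent.

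**Figure D1:**
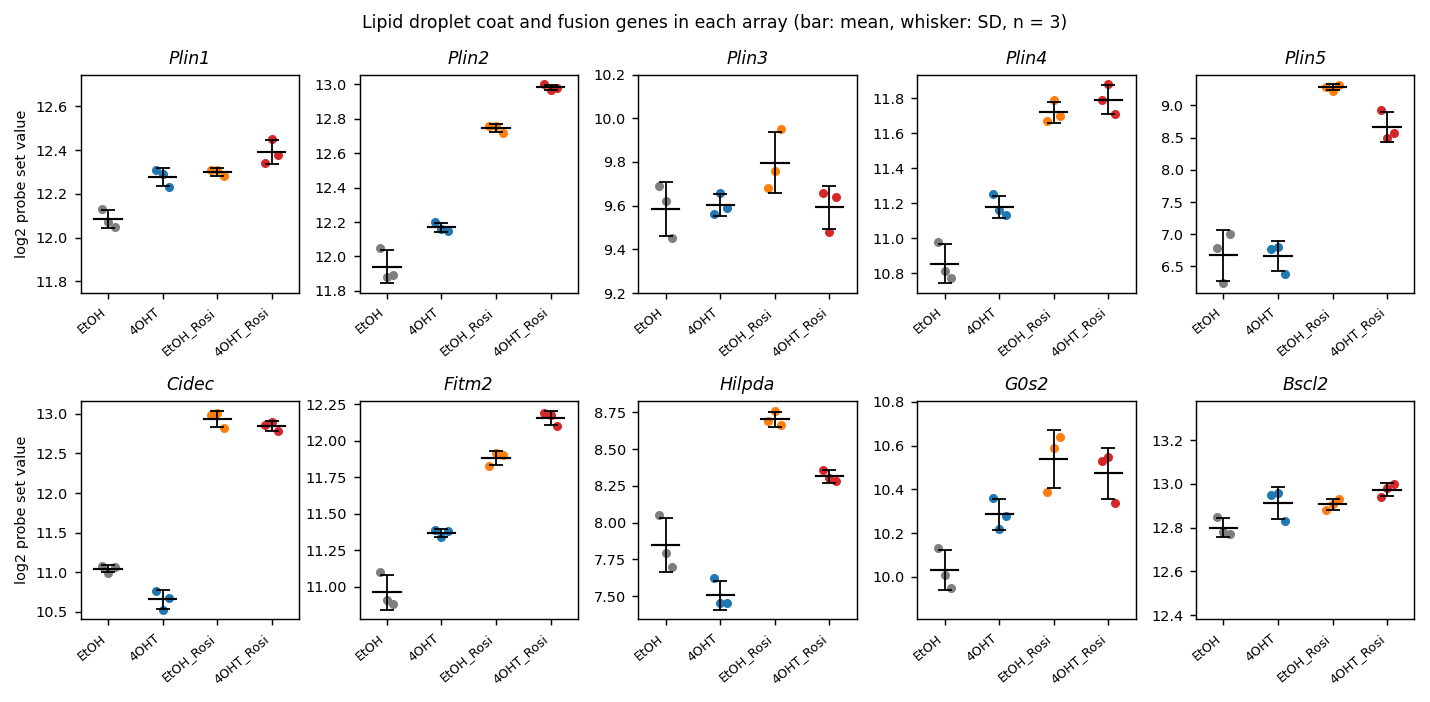
Log2 probe set value of each of the 10 genes (vertical axis, own range per panel) in the 3 arrays of EtOH, 4OHT, EtOH_Rosi and 4OHT_Rosi, with points for arrays, a bar for the mean and a whisker for the SD. Plin5 and Cidec show the widest step from the groups without to the groups with rosiglitazone, while Plin3 overlaps between EtOH and EtOH_Rosi, at 9.45 to 9.69 and 9.68 to 9.95.

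Plin5, the perilipin that is abundant in heart, oxidative muscle and brown fat and links droplets to mitochondria, had the largest rise of the 10 after ethanol and the second largest, below Cidec, after 4-hydroxytamoxifen. It read 6.78, 6.24 and 7.01 in EtOH and 9.29, 9.23 and 9.32 in EtOH_Rosi. In 4OHT it was 6.77, 6.81 and 6.39, and in 4OHT_Rosi 8.93, 8.50 and 8.57. The arrays with and without rosiglitazone were far apart, and the spread was wider at the low levels (SD 0.40 in EtOH) than in EtOH_Rosi (SD 0.05). The rise was 2.60 (SE 0.17, 6.08-fold, limma adjusted p = 1.43e-07) after ethanol and 2.01 (SE 0.17, 4.03-fold, adjusted p = 1.84e-06) after 4-hydroxytamoxifen. The deposited table has no detection calls, and whether the low values without rosiglitazone were above background was not tested, so these folds are those of the array values and may understate the change.

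Cidec, whose product is needed for the single large droplet of white fat cells, had the second largest rise after ethanol and the largest after 4-hydroxytamoxifen. Its values were 11.08, 10.99 and 11.07 in EtOH and 12.98, 13.01 and 12.82 in EtOH_Rosi. They were 10.76, 10.53 and 10.68 in 4OHT and 12.86, 12.90 and 12.78 in 4OHT_Rosi. All rosiglitazone arrays lay above all arrays without it. The rise was 1.89 (SE 0.07, 3.71-fold, limma adjusted p = 1.47e-09) after ethanol and 2.19 (SE 0.07, 4.56-fold, adjusted p = 7.98e-10) after 4-hydroxytamoxifen. From low to high the groups stood in the order 4OHT, EtOH, 4OHT_Rosi and EtOH_Rosi, and the last 2 did not differ beyond their spread (-0.09, SE 0.07, adjusted p = 0.55). The values with rosiglitazone, 12.78 to 13.01, are near the highest on the arrays, and whether that compressed a difference was not tested.

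The stretches upstream of Plin5, Cidec and Plin2 are shown because PPARgamma, the receptor of rosiglitazone, binds with its partner RXR to repeats of the element AGGTCA. Each is the 250 bases before a RefSeq start site (mouse GRCm38.p6, all on the minus strand, 5′ to 3′). For Plin5 and Cidec, which have more than 1 start in the table, the farthest upstream start was taken. Capitals mark any match to AGGTCA on either strand.
Plin5, chr17:56117549-56117798: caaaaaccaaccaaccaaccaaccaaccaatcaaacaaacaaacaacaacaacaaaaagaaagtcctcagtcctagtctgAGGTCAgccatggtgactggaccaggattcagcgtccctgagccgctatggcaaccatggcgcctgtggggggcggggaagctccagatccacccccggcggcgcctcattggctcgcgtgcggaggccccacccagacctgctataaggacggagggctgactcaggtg
Cidec, chr6:113435761-113436010: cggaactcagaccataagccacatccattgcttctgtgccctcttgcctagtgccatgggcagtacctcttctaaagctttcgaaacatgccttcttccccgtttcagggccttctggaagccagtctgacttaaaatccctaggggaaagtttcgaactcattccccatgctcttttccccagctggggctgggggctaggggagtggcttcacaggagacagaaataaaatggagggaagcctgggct
Plin2, chr4:86670060-86670309: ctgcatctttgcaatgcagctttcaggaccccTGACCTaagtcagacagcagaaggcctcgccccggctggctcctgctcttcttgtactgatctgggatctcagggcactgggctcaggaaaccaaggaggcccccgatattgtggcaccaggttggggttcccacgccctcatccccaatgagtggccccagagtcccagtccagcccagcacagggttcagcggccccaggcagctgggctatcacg

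The Plin5 stretch holds AGGTCA at position -170 from the start site, and the Plin2 stretch holds it on the opposite strand at -218. The Cidec stretch holds no match, although Cidec rose far more than Plin2. In all, 3 of 15 such windows of the 10 genes held AGGTCA, in Plin2, Plin5 and Bscl2, against 14.0% of 32851 promoter windows of the same length. The full repeat, AGGTCA and again AGGTCA on the same strand with 1 base between them, was in 0 of the 15 windows and in 0.0335% of all. An interferon element, GAAA and again GAAA with 2 bases between them, and the box TATAAA were also in 0 of the 15, against 2.98% and 12.4%. Both strands were searched. A match describes the letters of these windows only.

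Plin2, Plin4 and Fitm2 rose by similar amounts. Plin2, the coat protein of droplets in most cell types, was 12.05, 11.88 and 11.89 in EtOH, 12.76, 12.76 and 12.72 in EtOH_Rosi, 12.20, 12.16 and 12.15 in 4OHT, and 13.00, 12.97 and 12.98 in 4OHT_Rosi. The 4 groups did not overlap, in the order EtOH, 4OHT, EtOH_Rosi and 4OHT_Rosi. Rosiglitazone raised it by 0.81 after ethanol (SE 0.06, limma adjusted p = 2.76e-07) and by 0.81 after 4-hydroxytamoxifen (SE 0.06, adjusted p = 3.31e-07). Plin4, a perilipin of white fat that coats small new droplets, was 10.98, 10.81 and 10.77 in EtOH, 11.67, 11.79 and 11.70 in EtOH_Rosi, 11.25, 11.16 and 11.13 in 4OHT, and 11.79, 11.88 and 11.71 in 4OHT_Rosi. Rosiglitazone separated the arrays in both settings, with a rise of 0.87 after ethanol (SE 0.07, adjusted p = 8.57e-07) and 0.61 after 4-hydroxytamoxifen (SE 0.07, adjusted p = 2.55e-05).

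Fitm2 encodes an endoplasmic reticulum protein needed for droplets to bud. Its values were 11.10, 10.91 and 10.88 in EtOH, 11.39, 11.34 and 11.38 in 4OHT, 11.83, 11.92 and 11.90 in EtOH_Rosi, and 12.19, 12.18 and 12.10 in 4OHT_Rosi. As for Plin2, the 4 groups did not overlap and stood in the same order. The rise with rosiglitazone was 0.92 after ethanol (SE 0.06, limma adjusted p = 2.61e-07) and 0.79 after 4-hydroxytamoxifen (SE 0.06, adjusted p = 1.37e-06). Bscl2, the seipin gene, which acts at the same step, was not called: it lay between 12.77 and 13.00 on all 12 arrays, with differences of 0.11 (95% confidence interval -0.01 to 0.23, adjusted p = 0.182) and 0.06 (-0.06 to 0.18, adjusted p = 0.518). These values are near the highest on the arrays, and whether that compressed a change was not tested.

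Of the lipase inhibitor genes, Hilpda was 8.05, 7.79 and 7.70 in EtOH, 8.69, 8.76 and 8.66 in EtOH_Rosi, 7.62, 7.45 and 7.45 in 4OHT, and 8.36, 8.30 and 8.28 in 4OHT_Rosi. Rosiglitazone raised it by 0.86 after ethanol (SE 0.08, limma adjusted p = 3.84e-06) and by 0.81 after 4-hydroxytamoxifen (SE 0.08, adjusted p = 1.05e-05), and the 4 groups did not overlap. G0s2 was 10.13, 10.01 and 9.95 in EtOH, 10.39, 10.59 and 10.64 in EtOH_Rosi, 10.36, 10.22 and 10.28 in 4OHT, and 10.53, 10.55 and 10.34 in 4OHT_Rosi. Its rise of 0.51 after ethanol was called (SE 0.08, adjusted p = 0.000253), while after 4-hydroxytamoxifen the difference was 0.19 (SE 0.08, adjusted p = 0.128) and the arrays overlapped. Without 4OHT_Rosi 3, the array that stood apart, that difference was 0.25 and was called (adjusted p = 0.0457). A second, dimmer probe set of G0s2 gave 0.38 (SE 0.11, adjusted p = 0.0197) and 0.22 (SE 0.11, adjusted p = 0.213).

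The remaining perilipins moved little. Plin1, the main droplet coat of fat cells, was 12.13, 12.07 and 12.05 in EtOH, 12.31, 12.31 and 12.28 in EtOH_Rosi, 12.31, 12.29 and 12.23 in 4OHT, and 12.34, 12.45 and 12.38 in 4OHT_Rosi. The rosiglitazone arrays lay above the others in both settings, and the rise of 0.22 after ethanol was called (SE 0.05, limma adjusted p = 0.00648), while 0.11 after 4-hydroxytamoxifen was not (SE 0.05, adjusted p = 0.162). Plin3, a perilipin found in the cytosol of most cells that moves onto new droplets, was 9.69, 9.62 and 9.45 in EtOH, 9.68, 9.76 and 9.95 in EtOH_Rosi, 9.56, 9.66 and 9.59 in 4OHT, and 9.66, 9.48 and 9.64 in 4OHT_Rosi. The arrays with and without rosiglitazone overlapped in both settings. The differences were 0.21 (SE 0.08, adjusted p = 0.0765) and -0.01 (SE 0.08, adjusted p = 0.955), and the first was called without EtOH 1 (0.26, adjusted p = 0.0499) or EtOH_Rosi 1 (0.27, adjusted p = 0.0393).

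**Figure D2:**
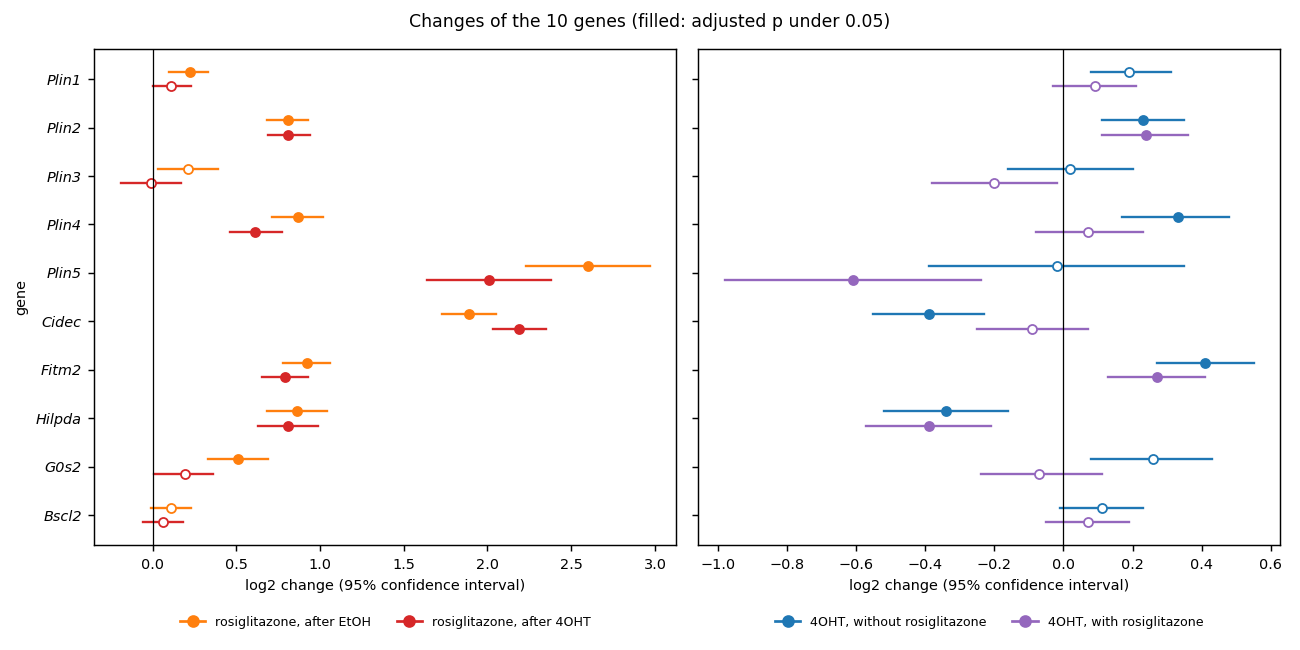
Log2 change of each gene (vertical axis) with its 95% confidence interval (horizontal axis), for rosiglitazone against none on the left and 4-hydroxytamoxifen against ethanol on the right, 3 arrays per group. Filled points passed an adjusted p under 0.05; on the left none of the filled points lies below 0, and on the right Plin2 and Fitm2 lie above 0 and Hilpda below 0 in both settings.

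Markers of other cells moved with rosiglitazone, beside 14.4% of all genes called higher and 16.3% called lower after ethanol. The summed level of 6 measured precursor markers was 13.61 to 13.71 (log2) in EtOH and 12.31 to 12.52 in EtOH_Rosi, and 5 of the 6 fell. Macrophage markers fell too, 8 of 10 after ethanol, with a summed level of 13.13 to 13.31 in EtOH and 12.62 to 12.75 in EtOH_Rosi. The sum of 7 adipocyte markers differed little, at 15.35 to 15.41 and 15.42 to 15.45, with 3 called higher and 2 lower. Single adipocyte markers differed more than their sum: Lep, the leptin gene, fell by 3.57 (SE 0.18, limma adjusted p = 2.29e-08) and Retn, the resistin gene, by 0.23 (SE 0.05, adjusted p = 0.00491). Slc2a4, the insulin-responsive glucose transporter, rose by 0.93 (SE 0.12, adjusted p = 5.55e-05), Adipoq, the adiponectin gene, by 0.41 (SE 0.06, adjusted p = 0.000115), and Cd36, a fatty acid carrier, by 0.27 (SE 0.06, adjusted p = 0.00372). Fabp4, the fat cell lipid carrier, averaged 13.54 in EtOH and 13.62 in EtOH_Rosi and was not called (0.08, SE 0.05, adjusted p = 0.297). Smooth muscle markers (4 of 4) and endothelial markers (4 of 4) fell as well, with sums of 13.21 to 13.39 against 11.99 to 12.46 and of 12.19 to 12.43 against 11.51 to 11.66. The sum of the liver markers was 7.79 to 7.91 against 7.79 to 7.87, and that of the skeletal muscle markers 9.15 to 9.33 against 9.19 to 9.27. In bulk RNA, fewer cells of a type and less RNA per cell cannot be told apart. The part of these markers in the changes of the 10 genes was not tested.

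Without rosiglitazone, 4-hydroxytamoxifen moved the genes in both directions. Of the 10, 3 rose (Plin2, Plin4 and Fitm2) and 2 fell (Cidec and Hilpda), against 2.13% of all genes called higher and 1.79% called lower. Their median was 0.15, beside 0.00 over all genes. Fitm2 rose by 0.41 (SE 0.06, 1.33-fold, limma adjusted p = 0.00295) and Cidec fell by 0.39 (SE 0.07, 1.31-fold lower, adjusted p = 0.00804), and both calls were kept without any 1 of the 12 arrays. In each the 3 treated arrays lay on 1 side of the 3 ethanol arrays, the lowest 4OHT value of Fitm2 at 11.34 against 11.10 in EtOH and the highest 4OHT value of Cidec at 10.76 against 10.99.

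The other calls in this comparison rested on more of the arrays. Plin4 rose by 0.33 (SE 0.07, limma adjusted p = 0.0194), but was not called without EtOH 2, EtOH 3, 4OHT 1 or 4OHT 2 (0.28 to 0.34, adjusted p from 0.0619 to 0.0944). Plin2 rose by 0.23 (SE 0.06, adjusted p = 0.0406). Its call was lost without EtOH 2, EtOH 3, any 4OHT array, EtOH_Rosi 1, EtOH_Rosi 2 or 4OHT_Rosi 2 (0.20 to 0.24, adjusted p from 0.0521 to 0.172), and with only the groups compared in the fit (adjusted p = 0.0725). Hilpda fell by 0.34 (SE 0.08, adjusted p = 0.0387), a call lost without EtOH 1, EtOH 2, 4OHT 2, 4OHT 3, EtOH_Rosi 1 or 4OHT_Rosi 2 (-0.24 to -0.37, adjusted p from 0.0509 to 0.149), with only the groups compared (adjusted p = 0.0728) and with median centring (-0.32, adjusted p = 0.0622). The 3 rises were 1 without EtOH 2, EtOH 3, 4OHT 1 or 4OHT 2, and the 2 falls were 1 without EtOH 1, EtOH 2, 4OHT 2, 4OHT 3, EtOH_Rosi 1 or 4OHT_Rosi 2. In all 3 genes the treated and ethanol arrays did not overlap.

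Plin1 and G0s2 also had every 4OHT array above every EtOH array, with differences of 0.19 (SE 0.05, limma adjusted p = 0.0677) and 0.26 (SE 0.08, adjusted p = 0.114) that were not called. Both were called with estimated array weights (0.21, adjusted p = 0.00961, and 0.28, adjusted p = 0.016), which gave EtOH 2 a weight of 2.66. Plin1 was also called with an intensity trend and robust eBayes (adjusted p = 0.00627) and among genes at or above the median level (adjusted p = 0.0245). In all, 5 of the 10 genes had non-overlapping higher arrays and 2 non-overlapping lower ones, against 11.2% and 11.7% of all genes. Plin3 (0.02, SE 0.08), Plin5 (-0.02, SE 0.17) and Bscl2 (0.11, SE 0.06) overlapped. Precursor markers were lower in the same comparison: their summed level was 13.26 to 13.34 in 4OHT, below the 13.61 to 13.71 of EtOH, with 1 of 6 called. That gene, Pdgfra, the receptor that marks fat precursors, differed by -0.53 (SE 0.09). The adipocyte marker sum was 15.42 to 15.46 against 15.35 to 15.41, with 0 of 7 called by limma and 3 at an unadjusted p under 0.05, all higher. Of 10 macrophage markers 1 was called higher and 2 lower, and their sum was 12.98 to 13.13 in 4OHT against 13.13 to 13.31 in EtOH. The rise was lost without any 1 EtOH array, 4OHT 1 or 4OHT 2, and the falls were 1 without any 1 EtOH array and 0 without 4OHT 2 or 4OHT 3. Of 4 smooth muscle markers 1 was called higher, Myh11, a smooth muscle myosin (0.43, SE 0.08, limma adjusted p = 0.0066). The other 3 lay below 0 and were not called, with a median of -0.07 over the 4. The sums overlapped, at 13.27 to 13.32 and 13.21 to 13.39. The part of these markers in the result was not tested.

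With rosiglitazone, 4-hydroxytamoxifen raised Plin2 and Fitm2 and lowered Plin5 and Hilpda. These are 2 of 10 higher and 2 of 10 lower, against 4.65% and 3.38% of all genes, with a median of 0.00. Hilpda fell by 0.39 (SE 0.08, 1.31-fold lower, limma adjusted p = 0.0112) and was called without any 1 of the 12 arrays. Plin2 rose by 0.24 (SE 0.06, adjusted p = 0.0219), and Fitm2 by 0.27 (SE 0.06, adjusted p = 0.0195). The Plin2 call was lost without EtOH_Rosi 2, EtOH_Rosi 3, 4OHT_Rosi 1 or 4OHT_Rosi 3 (0.22 to 0.24, adjusted p from 0.0508 to 0.0723). That of Fitm2 was lost without EtOH_Rosi 1, 4OHT_Rosi 1 or 4OHT_Rosi 2 (0.25 to 0.26, adjusted p from 0.0591 to 0.0639). Both were lost with only the groups compared (adjusted p = 0.0715 and 0.0578).

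Plin5 fell by 0.61 under rosiglitazone (SE 0.17, 1.53-fold lower, 95% confidence interval -0.98 to -0.24, limma adjusted p = 0.044), and its highest 4OHT_Rosi array, at 8.93, lay below the lowest EtOH_Rosi array, at 9.23. The call was lost without EtOH 1, 4OHT 1, 4OHT 2, any EtOH_Rosi array, 4OHT_Rosi 2 or 4OHT_Rosi 3 (-0.53 to -0.64, adjusted p from 0.055 to 0.138) and with array weights (adjusted p = 0.0808). The 2 rises of this comparison were 1 without any 1 EtOH_Rosi array, 4OHT_Rosi 2 or 4OHT_Rosi 3 and 0 without 4OHT_Rosi 1. The 2 falls were 1 without EtOH 1, 4OHT 1, 4OHT 2, any 1 EtOH_Rosi array, 4OHT_Rosi 2 or 4OHT_Rosi 3. Cidec differed by -0.09 (95% confidence interval -0.25 to 0.07), Plin4 by 0.07 (-0.08 to 0.23), G0s2 by -0.07 (-0.24 to 0.11), Plin1 by 0.09 (-0.03 to 0.21), Bscl2 by 0.07 (-0.05 to 0.19) and Plin3 by -0.20 (-0.38 to -0.02), none of them called. The 3 4OHT_Rosi arrays of Plin3 nevertheless lay below the 3 EtOH_Rosi arrays. In all, 4 genes had wholly higher and 3 wholly lower arrays, against 11.5% and 10.3% of all genes. Smooth muscle markers were higher in this comparison, with a sum of 12.57 to 13.02 in 4OHT_Rosi against 11.99 to 12.46 in EtOH_Rosi and 2 of 4 called, while the precursor sum overlapped at 12.20 to 12.65 against 12.31 to 12.52. Of the precursor markers 1 of 6 fell, Pdgfra (-0.39, SE 0.09, limma adjusted p = 0.0179), a count that was 0 without EtOH_Rosi 1, 4OHT_Rosi 1 or 4OHT_Rosi 2. Most of the list went the other way: 2 of the 6 lay below 0, and the median was 0.09. Without EtOH_Rosi 1 or 4OHT_Rosi 1, 1 precursor marker was called higher. Of the macrophage markers 1 of 10 was called higher and 1 lower, with sums of 12.64 to 12.70 against 12.62 to 12.75. The rise was kept without any 1 array, while the fall was lost without EtOH 2, 4OHT 2 or any 1 EtOH_Rosi or 4OHT_Rosi array. Their part in the result was not tested.

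The difference between the 4-hydroxytamoxifen effects with and without rosiglitazone was called by limma for 0 of the 10 genes, against 0.523% of all genes higher and 0.482% lower. At an unadjusted p under 0.05, 1 was higher and 3 were lower. They were Cidec (0.30, SE 0.10, adjusted p = 0.197), G0s2 (-0.32, SE 0.12, adjusted p = 0.219), Plin4 (-0.25, SE 0.10, adjusted p = 0.263) and Plin5 (-0.59, SE 0.24, adjusted p = 0.28). Thus the fall of Cidec called without rosiglitazone only, and that of Plin5 called with it only, were not shown to depend on rosiglitazone. For Plin2 the difference was 0.01 (95% confidence interval -0.17 to 0.18) and for Hilpda -0.05 (-0.31 to 0.21).

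Cidea, the relative of Cidec that is abundant in brown fat, went another way under rosiglitazone. It was 4.76, 4.71 and 5.07 in EtOH, 4.99, 4.89 and 4.87 in 4OHT, 6.20, 6.85 and 6.92 in EtOH_Rosi, and 5.13, 5.15 and 5.02 in 4OHT_Rosi. Every 4OHT_Rosi array lay below every EtOH_Rosi array, whereas for Cidec these groups overlapped. The interaction of Cidea was -1.63 (SE 0.21, limma adjusted p = 0.00726). Its values without rosiglitazone, 4.71 to 5.07, lay below the array medians of 5.97 to 6.05, where a fall may not be measurable, so the size of this interaction is that of the array values only. Ppara, a fatty acid receptor that is known to activate Plin5 in liver and heart, was 9.91, 9.99 and 10.03 in EtOH_Rosi and 9.66, 9.43 and 9.38 in 4OHT_Rosi, and 7.20, 7.08 and 7.02 in EtOH and 7.64, 7.37 and 7.48 in 4OHT. Its arrays lay higher after 4-hydroxytamoxifen without rosiglitazone and lower with it, and its interaction was -0.88 (SE 0.12, adjusted p = 0.00776).

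**Figure D3:**
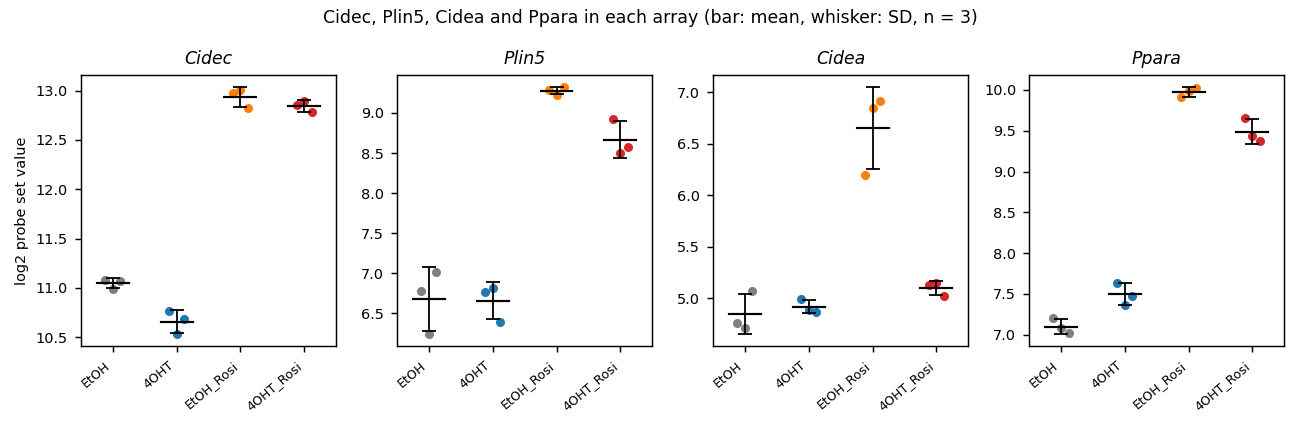
Log2 probe set values (vertical axis, own range per panel) of Cidec, Plin5, Cidea and Ppara in the 3 arrays of each group, with the mean as a bar and the SD as a whisker. The 4OHT_Rosi arrays of Cidea, at 5.02 to 5.15, lie near those of the groups without rosiglitazone, while those of Cidec, at 12.78 to 12.90, overlap the EtOH_Rosi arrays.

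Hilpda was set beside 12 measured hypoxia targets, since its product accumulates when oxygen is low. After 4-hydroxytamoxifen without rosiglitazone 4 of the 12 fell, 0 rose, and the median was -0.24, against 1.79% of all genes called lower. With rosiglitazone 6 fell, 0 rose, and the median was -0.38, against 3.38% of all genes called lower. By unadjusted p the falls were 10 and 11, and the rises 0 in both. The 4 falls were 1 without 4OHT 2 and 2 without 4OHT 3, while the 6 stayed between 4 and 7. Slc2a1, the basal glucose transporter, fell by 0.42 (SE 0.05, limma adjusted p = 0.000617) and 0.39 (SE 0.05, adjusted p = 0.000696), and it kept both calls without any 1 array. Egln3, an oxygen-sensing prolyl hydroxylase, fell without rosiglitazone by 0.90 (SE 0.17, adjusted p = 0.00872), and was not called without 4OHT 2 (-0.78, adjusted p = 0.0504). Ndrg1, a growth and stress response gene, differed by -0.50 (SE 0.10, adjusted p = 0.0102) and -0.92 (SE 0.10, adjusted p = 6.88e-05), and Pdk1, a kinase that holds back pyruvate oxidation, by -0.46 (SE 0.10, adjusted p = 0.0188) and -0.49 (SE 0.10, adjusted p = 0.00758). The calls without rosiglitazone were lost in Ndrg1 without 4OHT 2 or 4OHT 3 (-0.46 and -0.43, adjusted p = 0.0555 and 0.0562), and in Pdk1 without EtOH 1, EtOH 2, 4OHT 2 or 4OHT 3 (-0.40 to -0.46, adjusted p from 0.0632 to 0.0904).

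**Figure D4:**
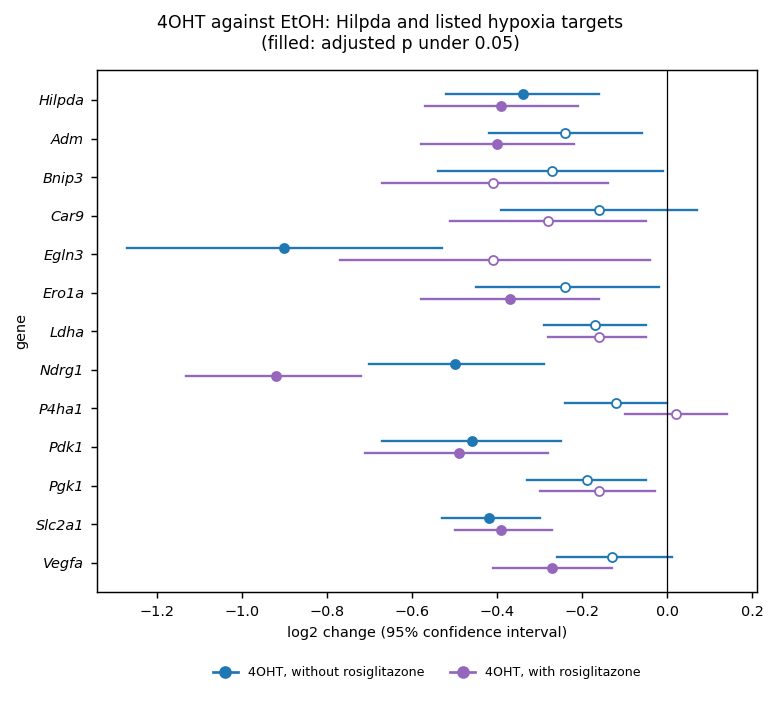
Log2 change after 4-hydroxytamoxifen (horizontal axis, with 95% confidence interval) for Hilpda and the 12 measured hypoxia targets (vertical axis), without and with rosiglitazone, 3 arrays per group. Filled points passed an adjusted p under 0.05; of the targets, all 12 lie below 0 without rosiglitazone and 11 with it.

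Rosiglitazone alone moved these targets mostly upward, as it did Hilpda: 9 of 12 rose and 2 fell after ethanol, against 14.4% and 16.3% of all genes, with a median of 0.45. Hif1a, which encodes the oxygen-sensitive subunit, went the other way and fell by 0.93 (SE 0.11, limma adjusted p = 1.89e-05). After 4-hydroxytamoxifen Hif1a was not called without rosiglitazone (-0.21, SE 0.11, adjusted p = 0.381) and rose with it (0.47, SE 0.11, adjusted p = 0.0181). That call was lost without EtOH_Rosi 2, EtOH_Rosi 3 or 4OHT_Rosi 3 (0.35 to 0.47, adjusted p from 0.0563 to 0.0744). The part of Hif1a or of oxygen in the changes of Hilpda was not tested. The sequence ACGTG is a form of the core of a hypoxia element, and other forms of this core were not searched. Of the 15 windows of the 10 genes 1 held ACGTG, at -43 from the downstream start of Hilpda, against 16.6% of all promoters. It is shown in capitals with the bases around it (GRCm38.p6, plus strand).
Hilpda, chr6:29272571-29272599: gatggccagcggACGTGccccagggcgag

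Other genes of droplet formation, lipolysis, triglyceride synthesis, trafficking and coats were counted from a list of 36, of which 30 were measured. Rosiglitazone raised 15 and lowered 2 after ethanol, against 14.4% and 16.3% of all genes, and raised 15 and lowered 2 after 4-hydroxytamoxifen, against 11.6% and 12.1%. The medians were 0.21 and 0.18. Of the lipolysis genes 4 of 5 rose in both settings, among them Mgll, the monoglyceride lipase (0.71, SE 0.06, limma adjusted p = 1.45e-06 after ethanol), and Lipe, the hormone-sensitive lipase (0.51, SE 0.05, adjusted p = 6.15e-06). Pnpla2, the adipose triglyceride lipase that HILPDA and G0S2 inhibit, rose by 0.35 (SE 0.06, adjusted p = 0.000387). In triglyceride synthesis the acyltransferase gene Dgat2 fell by 1.15 (SE 0.08, adjusted p = 2.12e-07), while Lpin1, the phosphatidate phosphatase, rose by 1.14 (SE 0.08, adjusted p = 1.77e-07).

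The effect of 4-hydroxytamoxifen on these 30 genes was counted in the same way. Without rosiglitazone 1 rose and 0 fell, against 2.13% and 1.79% of all genes, and at an unadjusted p under 0.05 limma gave 8 and 1. The rise was in Cavin2, a caveola coat gene (0.39, SE 0.07, limma adjusted p = 0.00638). With rosiglitazone 7 rose and 1, Cidea, fell, against 4.65% and 3.38%. No fit without 1 array kept all 7 rises, and the count ran from 3 to 6. It was 4 without EtOH 2 and 3 without EtOH_Rosi 2, EtOH_Rosi 3, 4OHT_Rosi 2 or 4OHT_Rosi 3. Gpat3, which starts glycerolipid synthesis in fat cells, rose by 0.58 (SE 0.07, adjusted p = 0.000144) and Dgat2 by 0.43 (SE 0.08, adjusted p = 0.00466), and neither call was lost without any 1 array.

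The genes nearest to each of the 8 called genes in pattern were taken by the smallest root mean square difference over the 12 arrays after each gene's own mean was subtracted, among 10625 genes at or above the median level, with predicted genes (Gm numbers and Rik names) and the 10 genes themselves left out. For Plin5 they were Acaa1b (0.252), Acer2 (0.253) and Ppara (0.266). For Cidec they were Homer2 (0.124), Slc27a1 (0.152) and Dhrs9 (0.183), and for Hilpda Grhpr (0.070), Pfkfb3 (0.086) and Gys1 (0.105). Plin2 was nearest to Mfsd8 (0.049), Mrps22 (0.054) and Hsd17b4 (0.059), Fitm2 to Paqr4 (0.063), Apmap (0.064) and Slc25a42 (0.067), and Plin4 to Ptk2b (0.044), Gca (0.060) and Xrcc3 (0.067). For Plin1 and G0s2, which moved less, they were Clptm1 (0.032), Rnf14 (0.039) and Armh3 (0.040), and Csad (0.048), Tlcd1 (0.052) and Dyrk1b (0.054). Among the 10 genes themselves, Fitm2 was the nearest of Plin2 (0.076), and Cidec and Plin5 were nearest to each other at 0.340. These are descriptions over 12 arrays that share 4 groups, with no test.

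Plin4 and Plin5 are adjacent in the RefSeq gene order of mouse chromosome 17, and 7 protein-coding genes separate Plin5 from Plin3. Of these 7, rosiglitazone after ethanol raised 1, Lrg1 (0.29, SE 0.06, limma adjusted p = 0.00308), and lowered 2, Tnfaip8l1 and Mydgf, against 14.4% and 16.3% of all genes. The changes of the 7 ran from -0.47 to 0.29. These neighbours were named after their values were seen. The rises of Plin4 (0.87) and Plin5 (2.60) were both above that range, whereas Plin3 (0.21) lay within it.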

How the data were processed

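The authors deposited 1 table of log2 probe set values, 41345 probe sets by 12 arrays. Per the submitters' processing notes it was made with Affymetrix Expression Console; no source here states the summary method, normalization or build. Probe sets with 1 gene symbol (23521) were matched by Entrez ID to RefSeq names (23328 matched), and the brightest per gene left 22180 genes, with no filter on dim ones. Group means over the 12 arrays were estimated together in limma 3.58.1 (R 4.3.3; residual degrees of freedom 8, prior 5.07 from eBayes), and 5 contrasts were adjusted by Benjamini-Hochberg. The steps were tested on simulated data. Replicate numbers did not pair the arrays: same-numbered arrays of different groups had residual correlations from -0.24 to 0.08, none over 0.1.

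The members and gene lists were chosen with earlier results of these data known. Groups follow each sample's own labels; the shared protocol mentions rosiglitazone for all. Named were the 10 members, Prdm16, the 3 genes nearest in pattern to each called member, and up to 3 genes of each list with the smallest p in a contrast; cell type marker genes and neighbours of Plin4 and Plin5 were named after their values were seen. The alternatives were a replicate block, median centring, quantile normalization, array weights, robust eBayes with an intensity trend, fits to only the groups compared, a filter at the median level, the mean of all probe sets, all probe sets, and leaving out each array. Leaving arrays out of list counts was added after seeing the data. Promoters are from RefSeq (GRCm38.p6), where all 10 genes matched. Figures used matplotlib 3.10.9.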

Additional observations from a re-analysis of the deposited data

Results flagged for a closer look

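No result of the 10 genes was called different between the settings with and without rosiglitazone by the test of the interaction. In simulated data that test recovered 55.2% of interactions of 0.5 (log2), so one of that size can be missed. Among the listed droplet genes, regulators and hypoxia targets and the genes nearest in pattern, the 4-hydroxytamoxifen effect differed in Cidea and Ppara. The interaction was -1.63 in Cidea and -0.88 in Ppara (limma adjusted p = 0.00726 and 0.00776). In Cidea the effect was 0.07 (SE 0.15) without rosiglitazone and -1.56 (SE 0.15) with it, but its values without rosiglitazone, 4.71 to 5.07, lay below the array medians, where a fall may not be measurable. In Ppara it was 0.40 (SE 0.09) without and -0.49 (SE 0.09) with it. The interactions of Cidea and Ppara were called without any 1 of the 12 arrays. Of the cell type markers, 1 of 4 endothelial genes was called higher in the interaction, against 0.523% of all genes. For 4-hydroxytamoxifen, 1 of these 4 was called higher with rosiglitazone and 0 without it, against 4.65% and 2.13% of all genes. Groups of 3 arrays were too small to look, gene by gene, for single arrays far from the rest of their group. Over all genes, 4OHT_Rosi 3 stood apart on a principal component, as given above.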

How the results depend on the processing

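For the 10 genes in 5 comparisons, 1040 values were recomputed: 987 kept their side of the threshold, 41 lost the call, 12 gained it and 0 reversed. A reversal was counted only where a value was called in either fit. Uncalled values that changed direction are therefore counted among the 987. The rosiglitazone counts and the interaction counts stayed within 1.5 times. With a replicate block the 2 falls under 4-hydroxytamoxifen with rosiglitazone were 1 (Plin5 had an adjusted p of 0.0521), and Plin2 without rosiglitazone had 0.0625. The same 2 falls were 1 with array weights. Array weights gave 5 rises in place of 3 without rosiglitazone. With only the groups compared the falls without rosiglitazone were 1 and the rises with it 0, and with median centring those falls were 1. Leaving out 1 array gave 1 to 3 rises and 1 to 2 falls without rosiglitazone, 0 to 2 rises and 1 to 2 falls with it, 8 to 9 rises for rosiglitazone after ethanol and 6 to 7 after 4-hydroxytamoxifen, and 0 for the other counts. The cause was not tested. The shares of genes called also moved. For 4-hydroxytamoxifen without rosiglitazone 1.24% to 6.07% were higher and 0.852% to 4.86% lower (2.13% and 1.79% as reported). With it they were 2.25% to 11.6% and 1.49% to 8.51% (4.65% and 3.38%). For rosiglitazone after ethanol they were 12.3% to 27.3% and 14.0% to 30.7% (14.4% and 16.3%), and after 4-hydroxytamoxifen 9.36% to 23.5% and 9.26% to 24.2% (11.6% and 12.1%). For the interaction they were 0.108% to 1.80% and 0.122% to 1.63% (0.523% and 0.482%). Each upper end except 4.86%, from array weights, came from the fit to genes at or above the median level. Those upper ends are shares of these brighter genes only, which include all 10 genes. Levels near the top or the floor of the arrays limit what can be measured.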

Other observations

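Of 10 transcriptional regulators of these genes, rosiglitazone after ethanol raised 4 and lowered 3 (median 0.05), against 14.4% and 16.3% of all genes. Ppara had the largest change, 2.88 (SE 0.09, 7.34-fold, limma adjusted p = 2.47e-10), and Nr1h3, the liver X receptor alpha gene, rose by 0.52 (adjusted p = 4.12e-05). Pparg itself differed by 0.06 (adjusted p = 0.473). The 3 falls were 1 without EtOH 3, EtOH_Rosi 1 or EtOH_Rosi 2. The caveola coat genes Cavin2 (1.35, SE 0.07, adjusted p = 2.29e-08) and Cavin1 (0.76, SE 0.06, adjusted p = 8.75e-07), whose products shape the plasma membrane pits that are abundant in fat cells, rose as well, while Cav1 differed by -0.16 (adjusted p = 0.061). After 4-hydroxytamoxifen without rosiglitazone 3 of the 10 regulators rose and 0 fell, against 2.13% and 1.79% of all genes. They were Cebpa (0.34, limma adjusted p = 0.0169), Ppara (0.40, adjusted p = 0.0212) and Pparg (0.24, adjusted p = 0.0255). The count was 0 without EtOH 2, EtOH 3 or 4OHT 1 and 1 without 4OHT 2 or 4OHT 3.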
